A study of Mus musculus with 20 samples.

Results

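The 8 genes described here encode proneural and neuronal basic helix-loop-helix (bHLH) transcription factors: Neurog1, Neurog2, Atoh1, Neurod1, Neurod2, Neurod4, Neurod6 and Bhlhe22. They were taken by name from the 21627 protein-coding genes of the RefSeq annotation of GRCm38.p6 on chromosomes 1 to 19 and X, and all 8 were found. They were followed through 20 CUT&RUN peak lists from the whole brain of mice aged 8 weeks. CUT&RUN releases and sequences the DNA that an antibody binds in intact nuclei. Antibodies against H3K4me1, H3K4me3, H3K27ac, H3K27me3 and the transcription factor EGR1 were each applied to nuclei sorted as excitatory and as inhibitory neurons, with 2 libraries in each of the 10 groups. All groups shared 1 genotype, written as Sun1 f/f with Emx1Cre (+). The genotype is given as written, and no change to the Sun1 gene itself is read from it. Emx1 drives Cre in the dorsal forebrain lineage, and Sun1 encodes a protein of the nuclear envelope. The sources used here do not give the gate of the sort. The labels do not say whether the 2 libraries of a group were made from different animals, so the spread behind each p-value may be technical.

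Proneural bHLH factors start neuronal differentiation in progenitors. They bind the E-box, the sequence CANNTG, as dimers with E proteins, induce Notch ligands in the same cell, and are opposed by Id proteins, which sequester E proteins, and by HES and HEY repressors, which act below Notch. Neurog1, Neurog2 and Atoh1 act in progenitors, Neurog2 in the cortex and Atoh1 in the rhombic lip that gives rise to cerebellar granule neurons. NeuroD factors and Bhlhe22 act later, in differentiating and mature neurons. H3K4me1 marks enhancers, H3K4me3 marks promoters, H3K27ac marks active promoters and enhancers, and H3K27me3 marks regions repressed by Polycomb.

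The measure was the percent of a window covered by a library's peaks. The window was the gene body with 5 kb on each side for H3K4me1, H3K27ac and H3K27me3, and the bases within 2 kb of either gene end for H3K4me3 and EGR1. Levels are given in the order excitatory 1, excitatory 2, inhibitory 1, inhibitory 2. Read depth is unknown, since the lists hold no counts. A list held between 49899 peaks (EGR1, inhibitory 1) and 321846 peaks (H3K4me1, excitatory 1). Peaks with a q-value under 0.05 made up 90.7% to 98.1% of the EGR1 lists, 23.9% to 47.6% of the H3K4me3 lists, and 2.57% and 4.94% in the excitatory against 31.8% and 35.1% in the inhibitory H3K27ac lists. They made up 0.0087% to 9.61% of the H3K4me1 lists and 0.0049% to 0.0099% of the H3K27me3 lists. Of the peaks over the 8 genes, 36 of 37 EGR1 peaks, 52 of 80 H3K4me3 peaks, 10 of 56 H3K27ac peaks, 1 of 97 H3K4me1 peaks and 0 of 102 H3K27me3 peaks had a q-value under 0.05.

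Defining markers were checked against the labelled neuron types and did not all follow them. For 11 inhibitory neuron genes (Gad1, Gad2, Slc32a1, Dlx, Lhx6, Sst, Pvalb and Vip among them) the summed H3K27ac coverage was 51.9 and 66.2 points in the libraries labelled excitatory and 3.88 and 6.69 points in those labelled inhibitory. All 9 of these genes that could be tested had more H3K27ac in the libraries labelled excitatory, and none of the 9 passed the test. Gad1, which makes GABA, had H3K4me1 over 21.2%, 25.4%, 4.42% and 7.40% of its window and was called higher in the libraries labelled excitatory. It was the 1 gene of the list called with H3K4me1, where 6 of the 11 genes were higher in those libraries and 5 lower. The H3K4me1 sums of the list were 150 and 230 against 132 and 139 points. With EGR1 the same list lay the other way, at 12.1 and 8.29 against 44.7 and 43.6 points. For 7 excitatory forebrain genes the sums were higher in the libraries labelled excitatory with H3K27ac (45.2 and 51.0 against 33.9 and 35.8 points) and with EGR1 (68.1 and 68.5 against 23.8 and 28.5 points). With H3K4me1 all 7 genes were higher there, with sums of 151 and 184 against 122 and 116 points and none called. With H3K4me3 the sums were lower there, at 81.9 and 146 against 147 and 147 points. Of the 6 genes tested with H3K4me3, 3 were higher there and 3 lower. Tbr1, the 1 gene of that list called, was lower in the libraries labelled excitatory. The names excitatory and inhibitory below are therefore those of the labels.

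None of the 8 genes passed the test between neuron types with any antibody (limma on quantile-normalized coverage, Benjamini-Hochberg adjusted p under 0.05 over all genes tested, two-sided). With H3K4me1, 0 of 8 passed, beside 4.06% of the 18013 genes tested (25.9% at an unadjusted p under 0.05), 456 higher in excitatory (2.53%) and 276 higher in inhibitory libraries (1.53%). Without quantile normalization that split was 1043 and 169. With H3K4me3, 0 of 7 passed, beside 3.02% of 15681 genes (17.6% at an unadjusted p under 0.05), 282 higher in excitatory (1.8%) and 192 higher in inhibitory libraries (1.22%). With H3K27ac, H3K27me3 and EGR1 limma called 0.0% of all genes tested, while 18.3%, 28.9% and 14.7% of the genes had an unadjusted p under 0.05. The smallest adjusted p over all genes was 0.144, 0.0555 and 0.107. With 2 libraries against 2, an exact two-sided permutation test of 1 gene cannot go below 0.33.

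**Figure D1:**
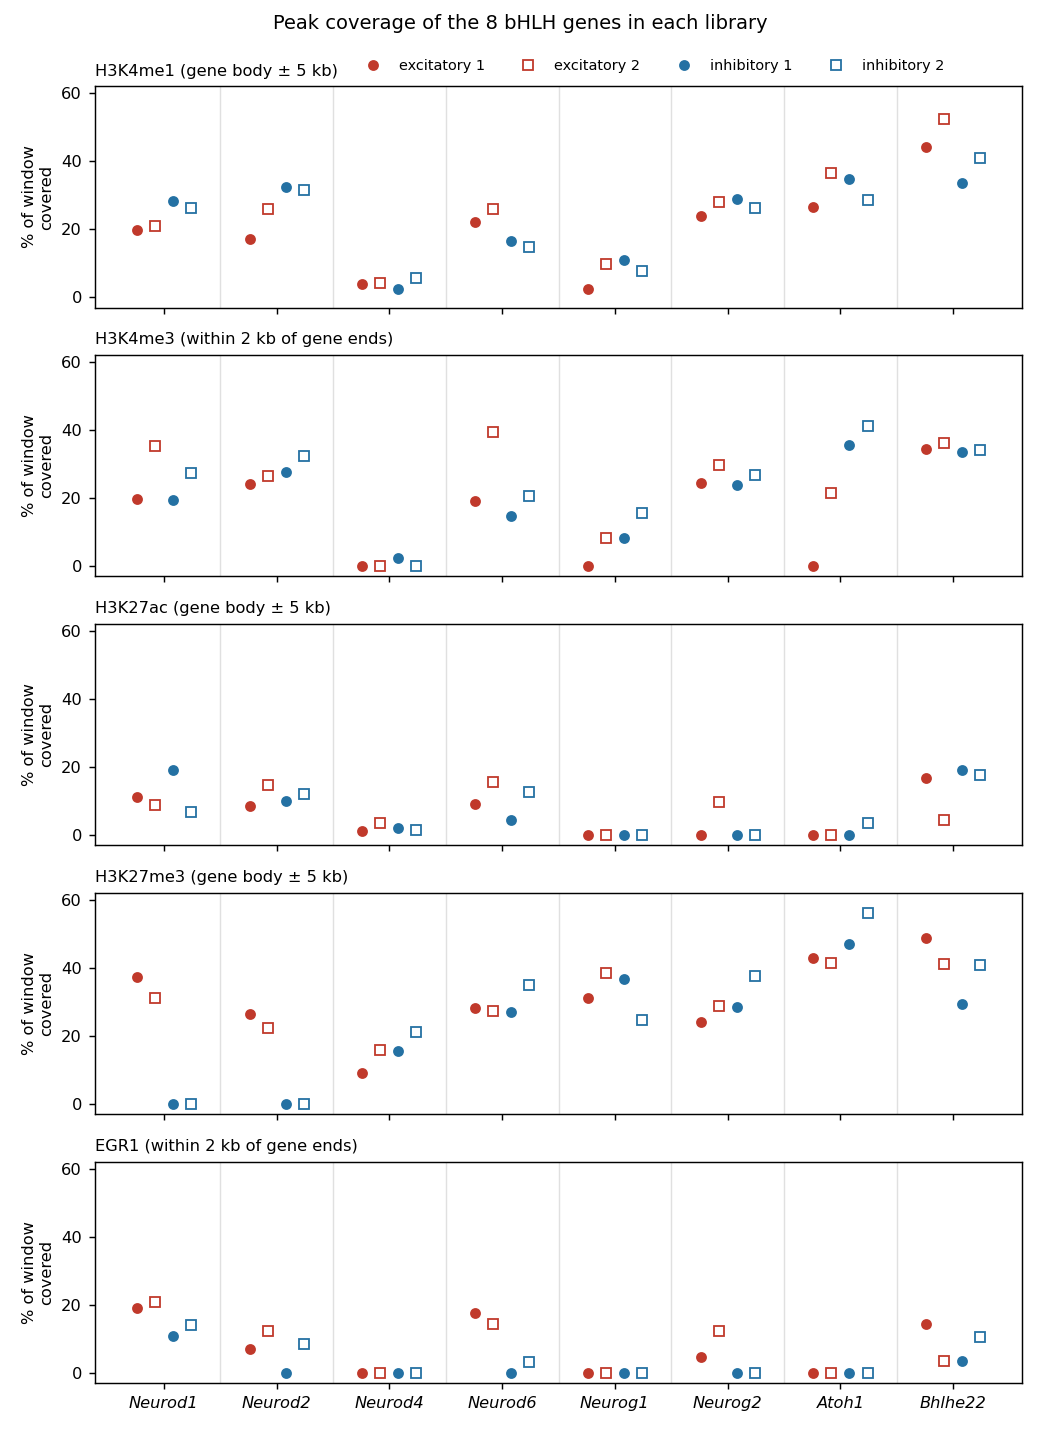
Percent of each gene's window covered by peaks (y axis) for the 8 bHLH genes (x axis) and 5 antibodies (panels), with 1 point for each library, red for excitatory and blue for inhibitory. Neurod1 and Neurod2 have H3K27me3 points at 0 in both inhibitory libraries, and Atoh1 has its H3K4me3 points ordered from 0% to 41.1%.

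Coverage of the members was also set beside the distribution over all genes. The median difference, excitatory minus inhibitory, was -2.17 points over the 8 genes with H3K4me1 (all genes tested, -0.343), 1.38 over 7 with H3K4me3 (-0.124), -1.11 over 5 with H3K27ac (-0.0829), 3.48 over 8 with H3K27me3 (0.0498) and 4.16 over 5 with EGR1 (-0.428). With 1 library left out at a time the median ranged over both signs for H3K4me3 (-3.12 to 1.06), H3K27ac (-1.39 to 2.40) and H3K27me3 (-1.10 to 2.74). With the other window it was -5.80 for H3K4me1, -3.18 for H3K4me3, 6.59 for H3K27ac and 7.18 for H3K27me3. Without quantile normalization it was -0.827 for H3K4me1 (all genes, 1.85), 0.717 for H3K27ac (-0.0881), 0.450 for H3K27me3 (-2.06) and 7.34 for EGR1 (2.36). The genes left out were those with a peak in fewer than 2 libraries: Neurod4 with H3K4me3, Neurog1, Neurog2 and Atoh1 with H3K27ac, and Neurod4, Neurog1 and Atoh1 with EGR1. Neurod1 and Neurod2 with H3K27me3, Atoh1 with H3K4me3 and Neurod6 with EGR1 lay farthest outside the range between the 5th and the 95th percentile of all genes tested, which was -13.48 to 12.83, -8.21 to 8.61 and -5.47 to 6.99 points for these antibodies.

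**Figure D2:**
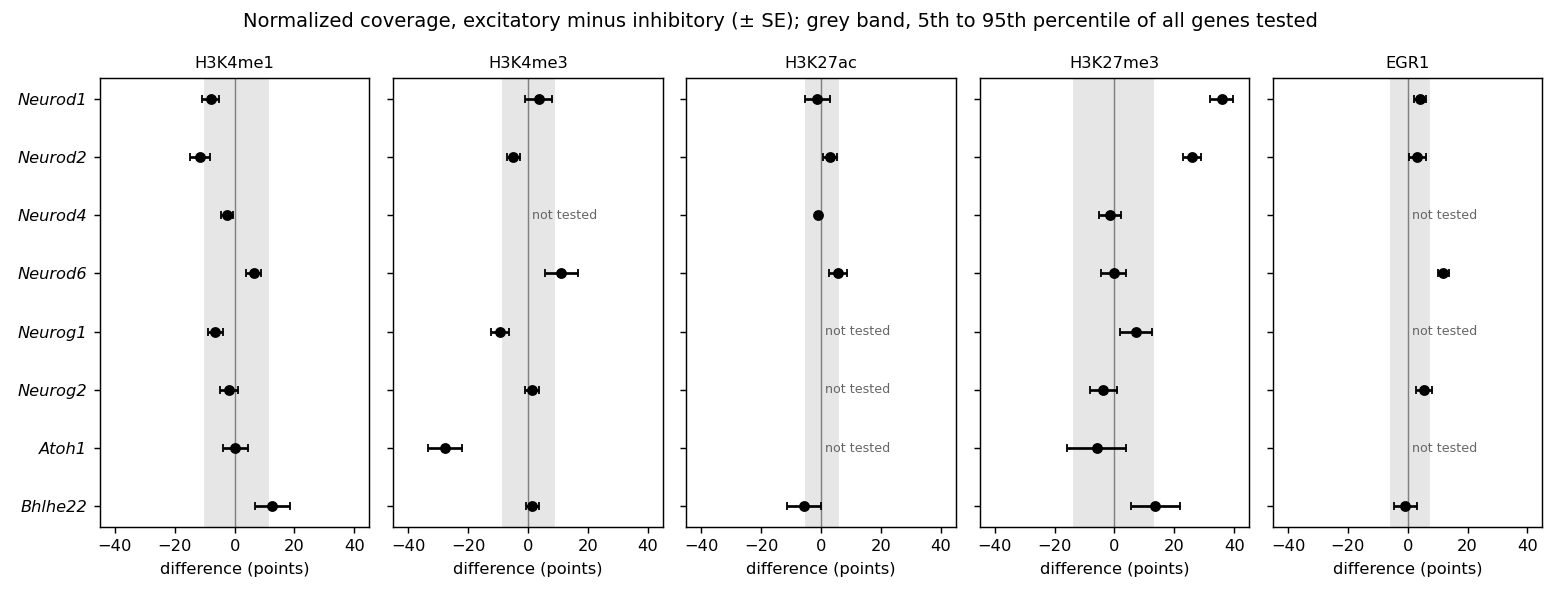
Difference in normalized coverage between excitatory and inhibitory libraries, in points (x axis, positive where excitatory is higher), with its standard error for each bHLH gene (rows) and antibody (panels), over 2 libraries against 2. The grey band runs from the 5th to the 95th percentile of all genes tested, and Neurod1 at 35.8 and Neurod2 at 25.9 points lie to the right of it with H3K27me3.

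Neurog1, which specifies early sensory and other neuronal precursors, carried H3K27me3 over 31.2%, 38.6%, 36.8% and 24.5% of its window. These levels were at the 98.0th, 99.3rd, 98.4th and 86.6th percentile of all genes in their libraries, and the groups overlapped. No H3K27ac peak lay in its window in any library, and no EGR1 peak lay near its ends. H3K4me3 covered 0%, 8.17%, 8.26% and 15.7% of its ends, so the excitatory libraries lay below the inhibitory ones by a narrow margin (difference -9.25 ± 3.03 SE, unadjusted p = 0.0193, limma adjusted p = 0.176). It was -5.79 without inhibitory 2 and -4.17 over the gene body with 5 kb on each side. H3K4me1 covered 2.52%, 9.85%, 11% and 7.83% of the window, with overlapping groups (difference -6.51 ± 2.46 SE, unadjusted p = 0.0397, limma adjusted p = 0.171). It was -3.31 without excitatory 1, -3.21 without quantile normalization and -10.3 within 2 kb of the gene ends.

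Neurog2, the main proneural gene of the cortical ventricular zone, had peaks of 3 histone marks in all 12 of their libraries. H3K4me3 covered 24.4%, 29.7%, 23.9% and 26.8% of its ends, in a single region at chr3:127632423-127634785 (mm10) that runs from 713 bases before the start site into the gene. H3K27me3 covered 24.2%, 28.8%, 28.5% and 37.5% of the window and H3K4me1 23.8%, 27.9%, 28.8% and 26.2%. The 2 neuron types overlapped with each of these marks. H3K27ac was found only in excitatory 2, over 9.57%. EGR1 was present in both excitatory libraries, over 4.58% and 12.4% of the ends, and in neither inhibitory library. Of all genes, 3.19% had EGR1 peaks in both excitatory and neither inhibitory library, and the EGR1 difference at Neurog2 did not pass (5.56 ± 2.64 SE, limma adjusted p = 0.397).

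Atoh1, the proneural gene of cerebellar granule cell progenitors, was among the genes with most H3K27me3 coverage in every library. H3K27me3 covered 42.8%, 41.5%, 47.1% and 56.1% of its window, from the 99.6th percentile upwards, as a block over the gene (chr6:64726561-64730879) and another downstream (chr6:64732185-64736742) that all 4 libraries shared in part. H3K4me1 covered 26.7%, 36.5%, 34.7% and 28.5%, with overlapping groups. H3K27ac was absent but for 3.56% in inhibitory 2, and no EGR1 peak lay within 2 kb of the gene ends.

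H3K4me3 was the mark in which Atoh1 differed most between the groups. It covered 0%, 21.6%, 35.7% and 41.1% of the gene ends, so both inhibitory libraries lay above both excitatory libraries, while the excitatory libraries also differed widely from each other. The difference was -27.7 ± 5.77 points (SE), with an unadjusted p of 0.00216 and a limma adjusted p of 0.0598. It was -18.1 without excitatory 1, -36.9 without excitatory 2 and -15.4 over the gene body with 5 kb on each side. The difference passed when only peaks of -log10 p 3 or more were kept (limma adjusted p = 0.00676), beside 4.42% of all genes tested. It also passed with equal numbers of peaks in each library (limma adjusted p = 0.0436), beside 2.64% of all genes tested. The limma adjusted p ranged from 8.03e-05 to 0.433 over the alternatives that kept all libraries. The peaks at issue lay around the start site, between -1672 and -276 bases and between -97 and 1249 bases from it, each present in excitatory 2 and both inhibitory libraries. Another H3K4me3 region, chr6:64734154-64735251, lay 5029 to 6126 bases downstream of the start and was present in all 4 libraries. Summed H3K4me3 coverage of 8 cerebellar granule neuron markers moved the same way, at 73.4 and 130 points in the excitatory and 190 and 217 points in the inhibitory libraries. Of these 8 markers, 7 were lower in the excitatory libraries, and Gabra6, Barhl1 and Zic1 passed the test. Some of the other marker lists lay the same way. The 5 thalamic and hindbrain glutamatergic genes summed to 50.9 and 61.3 against 78.8 and 102 points (5 of 5 lower, Otx2 called). The 6 astrocyte genes summed to 47.2 and 68.6 against 84.8 and 76.2 points (5 of 5 tested lower, none called). The excitatory forebrain sums given above did so too, though at 146 points excitatory 2 lay barely below the 147 points of both inhibitory libraries. Of the 6 genes tested in that list, 3 were lower and 3 higher in the excitatory libraries. Tbr1, the 1 called, had 0%, 12.0%, 34.3% and 35.9%. The part of these lists in the Atoh1 result was not tested, and in sorted bulk nuclei the share of nuclei of a type and the mark within each nucleus cannot be told apart.

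**Figure D3:**
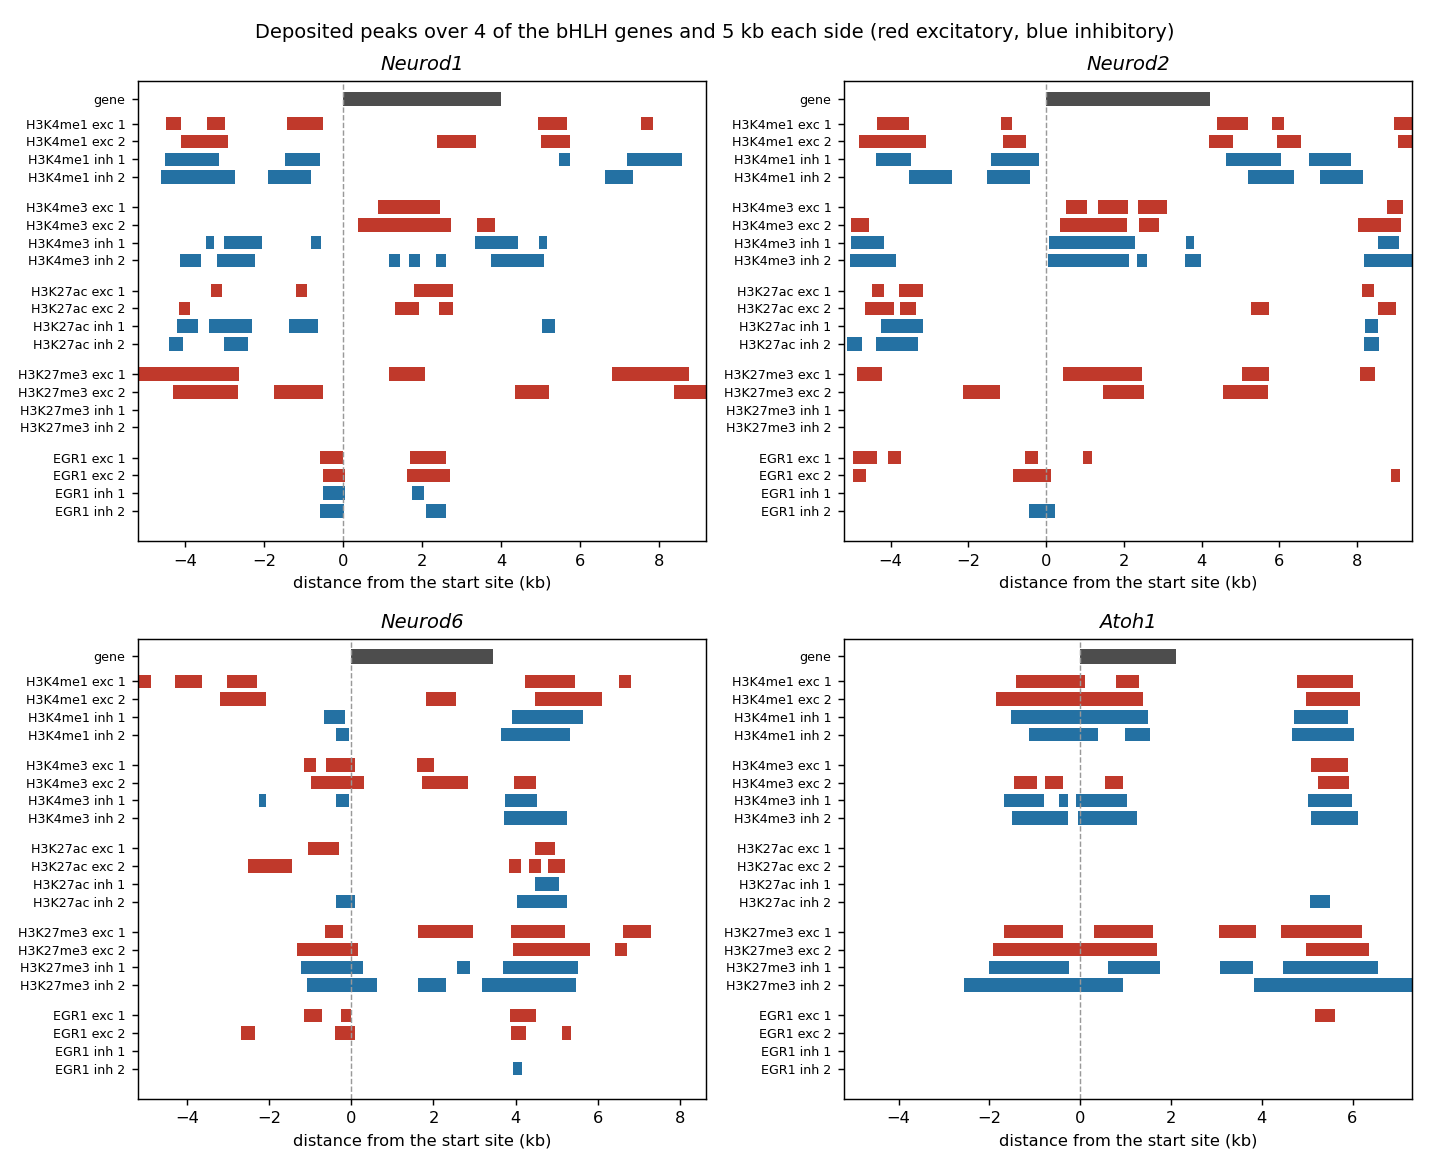
Deposited peaks of each library (rows, red excitatory, blue inhibitory) over Neurod1, Neurod2, Neurod6 and Atoh1 and 5 kb on each side, by distance from the start site in kb (x axis, transcription to the right). H3K27me3 rows of the inhibitory libraries are empty at Neurod1 and Neurod2 and filled at Neurod6 and Atoh1.

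Neurod1 and Neurod2, which drive terminal differentiation of granule neurons and of cortical and hippocampal neurons, had H3K27me3 peaks in both excitatory libraries and in neither inhibitory library. At Neurod1 the coverage was 37.4%, 31.2%, 0% and 0%, and at Neurod2 26.5%, 22.3%, 0% and 0%. The groups did not overlap at either gene, and the gap was several times the spread between the excitatory libraries. The difference was 35.8 ± 3.79 points (SE) at Neurod1 (unadjusted p = 0.000473) and 25.9 ± 3.16 points at Neurod2 (unadjusted p = 0.00085). Both had a limma adjusted p of 0.0555, the lowest reached, which 744 genes shared. Both genes met the filter of a covered base in at least 2 libraries through the excitatory libraries alone. Their order was thus fixed by the filter, and these p-values are no separate support for it. Without the filter the limma adjusted p was 0.0857 at Neurod1 and 0.0840 at Neurod2. On the scale log2(percent + 1) both genes passed (limma adjusted p = 0.0455), beside 6.68% of the 15436 genes tested. Over the alternatives that kept all libraries the limma adjusted p of these genes ranged from 0.0455 to 0.165. Of all 21627 genes, 1.28% had H3K27me3 peaks in both excitatory and neither inhibitory library over this window and 2.14% at the gene ends, and these 2 members were the only ones of the 8 with that pattern in either window.

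None of the H3K27me3 peaks at these genes is strong. No H3K27me3 peak at any of the 8 genes reached a -log10 p of 3, so nothing was left of the pattern at that threshold. In all, the H3K27me3 lists covered 277 and 243 Mb in the inhibitory and 182 and 216 Mb in the excitatory libraries. With equal numbers of peaks in each library the difference was 32.9 points at Neurod1 and 25.7 points at Neurod2. The part of read depth in the missing inhibitory peaks at these genes was not tested. At Neurod1 the regions shared by both excitatory libraries lay at the edges of the window (chr2:79446792-79449815 and chr2:79459275-79461826), and the gene body itself had a peak in 1 of them. At Neurod2 a shared region lay inside the gene (chr11:98327130-98329223, 422 to 2515 bases from the start). The window of Neurod2 also overlaps the neighbouring protein-coding gene Gm33099, while the other 7 members have no protein-coding neighbour within 5 kb.

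The granule neuron markers, as a sum, lay in the same direction as Neurod1 and Neurod2. Their summed H3K27me3 coverage was 135 and 161 points in the excitatory and 36.2 and 44.8 points in the inhibitory libraries, 6 of 7 tested markers were higher in the excitatory libraries with none called, and Gabra6 was at 0 in all 4. Summed H3K27ac coverage of the same list was 34.5 and 67.8 against 86.8 and 78.0 points. The inhibitory marker list had H3K27me3 sums of 305 and 283 against 310 and 297 points. The other marker lists were excitatory forebrain, inhibitory, thalamic and hindbrain, astrocyte, oligodendrocyte lineage and microglia. Their H3K27me3 sums overlapped between the groups or were higher in the inhibitory libraries. The part of the granule list in the Neurod1 and Neurod2 result was not tested. As at Atoh1, the share of nuclei of a type and the mark within each nucleus cannot be told apart.

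The active marks at Neurod1 and Neurod2 did not mirror H3K27me3 in size. H3K4me1 covered 19.9%, 21.0%, 28.2% and 26.4% of the Neurod1 window, so the inhibitory libraries lay above the excitatory ones (difference -8.01 ± 2.80 SE, unadjusted p = 0.0297, limma adjusted p = 0.147). Within 2 kb of the gene ends the direction turned, to 3.94 points. At Neurod2 H3K4me1 covered 17.3%, 26.0%, 32.5% and 31.7%, also with the inhibitory libraries above (difference -11.7 ± 3.37 SE, unadjusted p = 0.0142, limma adjusted p = 0.105). H3K27ac overlapped between the groups at both genes, with 11.2%, 9.0%, 19.1% and 6.79% at Neurod1 and 8.45%, 14.7%, 9.85% and 11.9% at Neurod2.

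H3K4me3 at Neurod1 covered 19.6%, 35.2%, 19.6% and 27.4% of the gene ends, with overlapping groups, while single regions differed in the libraries that held them. A region inside the gene, 367 to 2732 bases from the start, was present in both excitatory libraries and 1 inhibitory library. A region upstream, from -3209 to -2046, was present in both inhibitory libraries and neither excitatory one. This upstream region lay outside the window of the gene ends. The share of all H3K4me3 regions with such a split was not counted. At Neurod2 the H3K4me3 region over the first part of the gene (chr11:98327361-98329601) was present in all 4 libraries. Its coverage of 24%, 26.6%, 27.6% and 32.3% put the inhibitory libraries above by less than 1 point.

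Neurod6, a marker of cortical and hippocampal pyramidal neurons, kept H3K27me3 in all 4 libraries, over 28.1%, 27.3%, 27.1% and 34.9% of its window. A region over its start site (chr6:55680639-55682581) and another downstream (chr6:55675455-55678072) had it in every library. H3K4me1 covered 22.3%, 25.9%, 16.5% and 14.8%, with the excitatory libraries above (difference 6.39 ± 2.47 SE, unadjusted p = 0.0427, limma adjusted p = 0.179). Within 2 kb of the gene ends that difference turned, to -10.4 points, and with equal numbers of peaks in each library it was 4.06. H3K4me3 covered 19.1%, 39.5%, 14.7% and 20.6% of its ends, with overlapping groups. A region 1598 to 2829 bases from the start was present in both excitatory and neither inhibitory library, a split whose share over all regions was not counted. H3K27ac covered 9.10%, 15.5%, 4.48% and 12.6%, with overlapping groups.

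EGR1 at Neurod6 separated the neuron types. It covered 17.5%, 14.2%, 0% and 3.22% of the gene ends, so both excitatory libraries lay well above both inhibitory libraries. The difference was 11.9 ± 1.89 points (SE), with an unadjusted p of 0.000692 and a limma adjusted p of 0.110. Over the gene body with 5 kb on each side it was 7.56 points and passed (limma adjusted p = 0.0268), beside 2.63% of all genes tested. The limma adjusted p ranged from 0.0268 to 0.322 over the alternatives that kept all libraries. The EGR1 lists themselves differed in the same direction, with 93858 and 98534 excitatory and 49899 and 62412 inhibitory peaks, and with excitatory libraries wholly above at 47.4% of all genes tested. With equal numbers of peaks in each library the Neurod6 difference was 8.71 points (limma adjusted p = 0.185). The part of that gap in the Neurod6 result was otherwise not tested.

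The bases just before the start sites are shown for the NeuroD genes with EGR1 peaks over this stretch, with the promoter of Neurog1 as one that holds the EGR motif and no EGR1 peak. The 250 bases upstream of the start are from RefSeq on GRCm38.p6, read in the direction of transcription, and the table held an entry for 7 of the 8 genes. Capitals mark 2 kinds of match: the EGR motif GCGNGGGCG (9 letters, searched on both strands, so that a match can read as its reverse complement) and the E-box CANNTG (6 letters). The intervals are chr2:79456637-79456886 for Neurod1, chr11:98329646-98329895 for Neurod2, chr6:55681264-55681513 for Neurod6 and chr13:56252181-56252430 for Neurog1, all on the minus strand.
Neurod1: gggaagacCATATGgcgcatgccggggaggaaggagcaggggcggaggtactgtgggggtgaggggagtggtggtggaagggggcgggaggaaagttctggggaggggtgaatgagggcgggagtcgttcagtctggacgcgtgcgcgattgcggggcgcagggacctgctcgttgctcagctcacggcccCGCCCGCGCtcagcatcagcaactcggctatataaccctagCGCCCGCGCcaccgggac
Neurod2: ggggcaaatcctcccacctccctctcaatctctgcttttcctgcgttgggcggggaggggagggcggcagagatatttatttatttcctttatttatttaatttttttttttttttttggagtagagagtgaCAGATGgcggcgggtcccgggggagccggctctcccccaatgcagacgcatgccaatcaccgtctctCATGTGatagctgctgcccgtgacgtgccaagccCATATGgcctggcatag
Neurod6: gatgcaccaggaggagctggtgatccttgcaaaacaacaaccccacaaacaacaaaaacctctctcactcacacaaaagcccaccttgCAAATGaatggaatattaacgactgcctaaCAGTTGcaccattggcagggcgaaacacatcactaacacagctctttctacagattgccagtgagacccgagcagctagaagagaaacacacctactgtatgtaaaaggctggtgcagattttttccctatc
Neurog1: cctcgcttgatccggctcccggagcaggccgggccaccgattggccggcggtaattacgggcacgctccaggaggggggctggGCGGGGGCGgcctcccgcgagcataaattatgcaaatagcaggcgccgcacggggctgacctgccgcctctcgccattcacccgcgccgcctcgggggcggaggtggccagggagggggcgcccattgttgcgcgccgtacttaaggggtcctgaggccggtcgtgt

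The Neurod1 stretch held the EGR motif at 2 places, -59 to -51 and -18 to -10 from the start, and EGR1 peaks covered all 250 bases in all 4 libraries. Its region (chr2:79456589-79457221) had -log10 p values of 9.58, 16.9, 15.9 and 8.25. The Neurod6 stretch held no match to the motif, and EGR1 covered all 250 bases in both excitatory and 0 bases in both inhibitory libraries. At Neurod2, also without a match, EGR1 covered 36, 250, 0 and 250 bases. At Neurog1, with 1 match, EGR1 covered 0 bases in every library. The motif occurs in 6.41% of 21044 promoter stretches of this length and the E-box in 62.8%. These matches describe letters only: the absence of a match says nothing of binding by the factor. Among 17273 genes' stretches, EGR1 peaks were present in both excitatory libraries in 49.96% and in both inhibitory libraries in 46.14%.

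Over the whole gene ends EGR1 covered 18.9%, 20.7%, 10.9% and 14.0% at Neurod1, with the excitatory libraries above, and 6.96%, 12.2%, 0% and 8.35% at Neurod2, with overlapping groups. A second EGR1 region inside Neurod1 (chr2:79453920-79455024) was also present in all 4 libraries. Neither difference passed, at 4.16 ± 1.94 SE (limma adjusted p = 0.391) and 3.20 ± 2.89 SE (limma adjusted p = 0.644). Neurod1, Neurod6 and Neurog2 were the members whose excitatory libraries lay wholly above the inhibitory ones, 3 of 5 tested (all genes tested, 47.4%). None lay the other way (all genes tested, 6.05%). Neurog2 met the filter on covered libraries through the excitatory libraries alone, which fixed its order.

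Neurod4, a NeuroD gene of progenitors and early neurons, had low coverage of every active mark. H3K4me1 covered 4.03%, 4.25%, 2.50% and 5.57% of its window, below the 40th percentile in each library. H3K4me3 reached its ends only in inhibitory 1, over 2.3%, and EGR1 in no library. H3K27ac covered 1.31%, 3.47%, 1.92% and 1.33%. H3K27me3 covered 8.93%, 15.8%, 15.6% and 21.0%, and the 1 region that all 4 libraries shared spanned the start site (chr10:130278146-130282266).

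Bhlhe22, which helps set the identity of cortical projection neurons and of dorsal horn interneurons, had high coverage of H3K4me1, H3K4me3 and H3K27me3 in all their libraries. H3K4me1 covered 44.1%, 52.4%, 33.6% and 40.9% of its window, from the 98.8th percentile upwards, with the excitatory libraries above (difference 12.6 ± 5.76 SE, limma adjusted p = 0.235). H3K27me3 covered 48.7%, 41.2%, 29.3% and 40.8%, with the excitatory libraries above by a margin under 1 point. H3K4me3 covered 34.5%, 36.3%, 33.7% and 34.2% of its ends, the narrowest spread among the members with H3K4me3 in every library. H3K27ac covered 16.8%, 4.54%, 19.1% and 17.6%, so that excitatory 2 stood apart from its partner. EGR1 covered 14.4%, 3.39%, 3.45% and 10.5% with no order between the types.

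Where the libraries of the 2 types did not overlap, the members' counts were read against all genes tested. With H3K4me1, 2 of 8 members had both excitatory libraries above (all genes, 39.3%) and 2 had both inhibitory libraries above (15.3%). With H3K4me3 these counts were 1 and 3 of 7 (25.6% and 20.3%), with H3K27ac 0 and 1 of 5 (24.9% and 26.2%), with H3K27me3 3 and 1 of 8 (14.2% and 48.7%), and with EGR1 3 and 0 of 5 (47.4% and 6.05%). Neurod1 and Neurod2 with H3K27me3 and Neurog2 with EGR1 met the filter through the excitatory libraries alone, which fixed their order.

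The combination of marks at the gene ends showed what the members shared. In the excitatory libraries all 8 genes had H3K27me3 peaks in both libraries, against 34.7% of all genes, and in the inhibitory libraries 6 did, against 41.2%. Neurod1 and Neurod2 were the exceptions. H3K4me3 and H3K27me3 both lay at the ends of 5 genes in the excitatory libraries (19.4% of all genes), namely Neurod1, Neurod2, Neurod6, Neurog2 and Bhlhe22. In the inhibitory libraries they also lay at 5 (24.5% of all genes), namely Neurod6, Neurog1, Neurog2, Atoh1 and Bhlhe22. The marks came from separate libraries, so these counts do not show that they lay in the same nuclei. H3K27ac was present in both libraries at 3 genes in the excitatory group (60.1% of all genes) and 2 in the inhibitory group (57.8%). H3K4me1 was present at 8 (71.7%) and 7 (65.5%), H3K4me3 at 5 (66.3%) and 7 (65.5%), and EGR1 at 5 (63.4%) and 2 (57.4%).

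**Figure D4:**
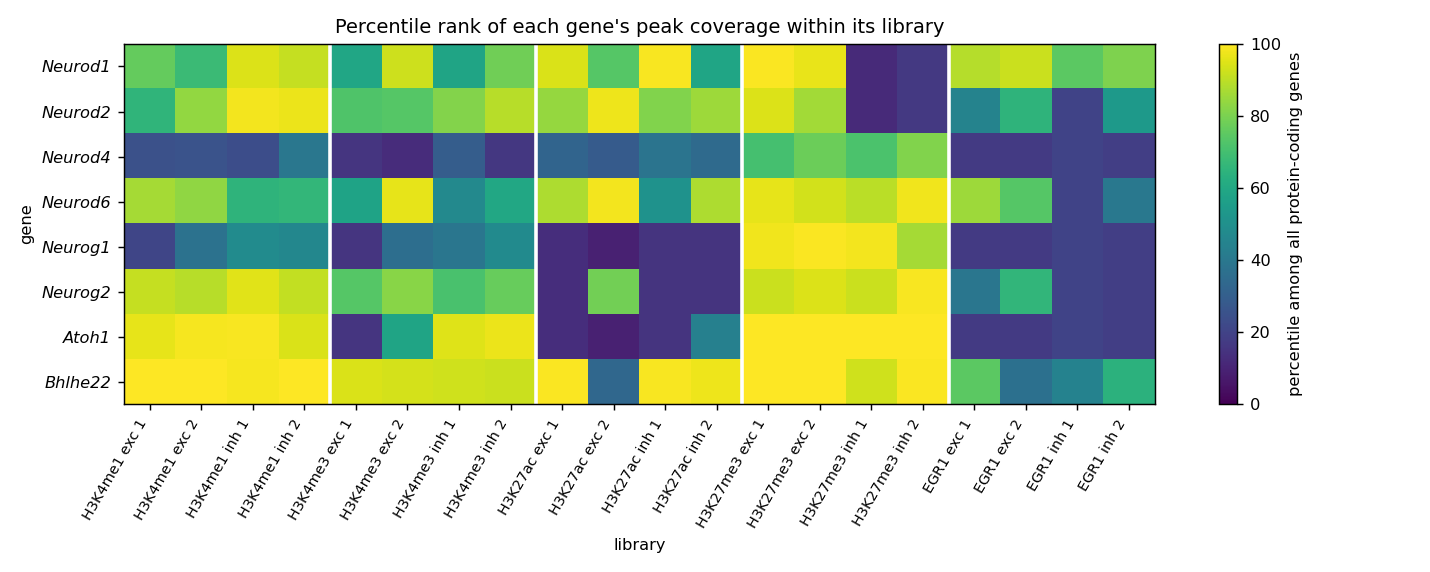
Percentile rank of each bHLH gene's coverage (rows) among all protein-coding genes of the same library (columns, grouped by antibody), on a colour scale from 0 to 100. Atoh1 and Bhlhe22 rank high with H3K4me1 and H3K27me3, and Neurod4 and Neurog1 rank low with H3K27ac and EGR1.

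Across the 20 libraries the percentile ranks at the gene ends were compared between genes. The points share antibodies, which differ widely in their levels at a gene, so a correlation here mostly compares profiles over the 5 antibodies and is given as a description. Atoh1 and Neurog1 were the pair of members most alike (Pearson r = 0.86), and Neurod1 and Neurod4 the least (r = -0.32). The gene most like each member was Mecom for Neurog1 (r = 0.99), Noxa1 for Neurod4 (0.98), Nkx1-1 for Atoh1 (0.96), Ucn for Neurog2 (0.94), Chchd10 for Bhlhe22 (0.90), Ooep for Neurod6 (0.79), Galnt15 for Neurod2 (0.77) and Phf21b for Neurod1 (0.75).

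Other genes of the pathway were counted with the same test. No gene of the 3 E proteins (Tcf3, Tcf4, Tcf12), the 4 Id inhibitors or the 6 HES and HEY repressors was called with any antibody. Among 14 other lineage bHLH genes, Olig3 and Atoh7 fell in the excitatory libraries with H3K4me1 (all genes, 1.53%). Olig3, a gene of dorsal progenitors, had 2.44%, 7.19%, 26.2% and 29.9% (difference -24.3, limma adjusted p = 0.0401), and Atoh7, which specifies retinal ganglion cells, had 7.24%, 9.04%, 19.9% and 16.0% (-12.8, limma adjusted p = 0.0458). The median difference over the 14 was -7.06 points, beside -0.343 over all genes tested. With H3K4me3 Nhlh2, a bHLH gene of developing neurons, fell: it had 8.29%, 18.0%, 27.2% and 31.3% (difference -16.1, limma adjusted p = 0.0408).

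Of 11 genes known to act downstream of or with proneural factors, 3 fell in the excitatory libraries with H3K4me3 (all genes, 1.22%) and none rose, and none was called with the other antibodies. Tbr1, a transcription factor of deep cortical projection neurons, had 0%, 12.0%, 34.3% and 35.9% (difference -29.9, limma adjusted p = 0.0138). Eomes, of intermediate progenitors, had 13.1%, 28.6%, 49.4% and 51.6% (-29.5, limma adjusted p = 0.0226), and Barhl1, of granule cell precursors, had 0%, 7.15%, 24.6% and 27.6% (-23.5, limma adjusted p = 0.0125). In all 3 the excitatory libraries lay below the inhibitory ones, and excitatory 1 was lower than excitatory 2, the order seen at Atoh1. The H3K4me3 list of excitatory 1 was also the shorter over all genes. It held 79135 peaks against 163053 in excitatory 2, with a median gene-end coverage of 15.8% against 18.2%. Inhibitory 2 was likewise shorter than inhibitory 1, at 83532 against 159364 peaks, with a median of 16.8% against 16.2%. At all 3 genes inhibitory 2 nonetheless had the higher coverage of the inhibitory libraries. The median difference over the 11 was -2.31 points, beside -0.124 over all genes tested. Tbr1 is also in the excitatory forebrain list and Barhl1 in the granule list used above. With any 1 of the 4 libraries left out, no gene of the whole table passed with H3K4me1 or H3K4me3, so none of these calls held then.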

How the data were processed

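CUT&RUN nuclei were sorted by flow cytometry and processed with a CUTANA kit and NEBNext Ultra II, per the labels' protocols. Build mm10, MACS2 2.2.5, Bowtie2 2.3.5, SAMtools 1.12, Picard 2.25.0, Trim Galore 0.5.0 and cutadapt 1.18 are listed in the submitters' processing notes. The sources used here give neither the settings nor whether a control library was used. The authors deposited a separate peak list for each library, with a fold enrichment (a ratio), a -log10 p-value, a -log10 q-value and a score for each peak, on which no test was run. EGR1 peak names carry replicates 3 and 4 where the labels say 1 and 2, and the labels were followed.

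The percent of each window covered was computed in Python 3.11.15 (numpy 2.4.6, pandas 2.3.3), quantile-normalized over the 4 libraries of an antibody, and compared in R 4.3.3 by limma 3.58.1 (lmFit, eBayes with trend), for genes with a covered base in at least 2 libraries. Levels in the text are not normalized. Differences are in normalized percentage points. Overlapping peaks were merged into regions. A percentile counts the genes below a gene in its library, and tied genes share their middle rank. A gene without a peak thus has a percentile above 0, such as 16.5 for Neurod1 with H3K27me3 in inhibitory 2. Per-sample columns of no sample numbered 0.

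The 8 genes, the lists and the tests were chosen with earlier results of these data known. All 8 genes are named. A difference is given where its unadjusted p was under 0.05 or the text turns on it, and from each list up to 3 genes past an adjusted p of 0.05. The marker lists name no further genes by that rule: Gad1, Gabra6, Zic1 and the other markers named are defining markers of their types. One result of the other lineage bHLH list is not reported here. Gene positions are RefSeq GRCm38.p6.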

Additional observations from a re-analysis of the deposited data

How the results depend on the processing

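The 9 member differences with an unadjusted p under 0.05 kept their direction under the alternatives run, except that with the other window H3K4me1 turned to 3.94 points at Neurod1 and to -10.4 points at Neurod6. Calls over all genes moved more. With the other window they numbered 219 (H3K4me1), 111 (H3K4me3) and 432 (EGR1, 2.63% of genes tested, with 1 of the members, Neurod6). Without quantile normalization there were 1212 H3K4me1 calls and 0 H3K4me3 calls. At -log10 p of 3 or more, and with equal numbers of peaks, there were 0 H3K4me1 calls each, and 1 member, Atoh1, was called with H3K4me3 in each case. These settings called 4.42% and 2.64% of all genes tested with H3K4me3. At that p threshold 0 members had H3K27me3 or H3K4me1 peaks in both libraries of either neuron type. Without the filter on covered libraries there were 20 H3K4me1, 0 H3K4me3, 16 H3K27ac and 53 EGR1 calls. On the scale log2(percent + 1) there were 291 H3K4me1, 0 H3K4me3 and 1031 H3K27me3 calls. The last were 6.68% of the genes tested, and 2 of them were members, Neurod1 and Neurod2. Leaving out 1 library at a time gave 0 to 0 calls with H3K4me1 and H3K4me3, and 0 to 1285 with H3K27ac (0 to 1 members); the 1285 came without excitatory replicate 1, with Bhlhe22 among them. Where the number of calls was 0, genes with an unadjusted p under 0.05 numbered 540 and 3907 (H3K4me1, p threshold and equal numbers), 2342, 2560 and 2772 (H3K4me3, no normalization, no filter and log2 scale), and 2945 to 4395 (H3K4me1) and 1337 to 3006 (H3K4me3) with 1 library left out.

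The labels do not pair libraries by replicate number, and the deviations of same-numbered libraries correlated at -0.017 to 0.093. With the number as a replicate block there were 0 H3K4me1 calls (4774 genes at an unadjusted p under 0.05) and 1329 H3K27ac calls. With H3K4me3 that block gave 1258 calls (8.02% of genes tested), 3 of them members (Neurod6, Neurog1 and Atoh1). Neurod1 and Neurod2 gave no H3K27me3 value at the stricter p threshold or without an excitatory replicate, since fewer than 2 libraries then had a peak, and no member could be tested with H3K4me1 or H3K27me3 at that threshold. The number of libraries, 2 in each group, limits every comparison, and read depth is unknown.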
